A study of Mus musculus with 21 samples.

Results

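The genes described here encode the proteins that clear calcium from the cytosol of the heart muscle cell and their direct regulators. They are the sarcoplasmic reticulum pump gene Atp2a2, its inhibitors Pln and Sln, the pump partner gene S100a1, the sodium-calcium exchanger gene Slc8a1 and the plasma membrane pump genes Atp2b1 and Atp2b4. The 7 genes were chosen by function, but with earlier results of these data known, as were the gene lists used below. Their counts are therefore not those of a blind choice. Each gene was read through the probe set annotated to it alone. Where a gene had several, the one with the highest mean log2 level over all 21 arrays was used. Of the 7, 6 had such a probe set, among 19937 genes that had one. Atp2b4 had none in the annotation used and is not analysed here. A gene entered the tests when it reached a log2 value of 5 on 3 or more arrays, which 11384 genes did, 5 of the 7 among them. Sln stayed below 5 on all 21 arrays.

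Relaxation of the heart needs calcium to leave the cytosol after each beat. SERCA2a, made from Atp2a2, pumps it back into the sarcoplasmic reticulum, and phospholamban and sarcolipin bind the pump and inhibit it until phosphorylation relieves phospholamban's block. The exchanger NCX1, made from Slc8a1, carries out most of the remaining calcium in return for sodium, and the plasma membrane calcium pumps carry out a small part. In rodent ventricle the sarcoplasmic reticulum pump takes the larger share.

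Total RNA came from the left ventricle of mice aged 9-13 weeks, killed 4 days after the last intraperitoneal injection. Mice carrying the Tg(αMHC-MerCreMer) transgene had 4 daily injections of tamoxifen at 40 mg/kg (3 arrays) or 4 control injections (3 arrays), 1 tamoxifen injection (3 arrays) or 1 control injection (3 arrays). Wild-type mice had 4 tamoxifen injections (3 arrays) or 4 control injections (6 arrays). The transgene expresses a Cre recombinase that tamoxifen activates, under the cardiomyocyte promoter αMHC, and the labels name no floxed target gene and no content of the control injections. Each group of 3 held 1 male and 2 females, and the wild-type controls 3 of each. Nothing in the labels says outright that each array came from a separate animal, so the p-values measure the spread between these samples. Values are RMA log2 expression levels, on which a difference of 1 is a doubling, and the levels of different probe sets cannot be set against each other.

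The 3 arrays of MerCreMer hearts after 4 tamoxifen injections differed from each other more than those of any other group. Their pairwise correlations over the 11384 tested genes were 0.918 to 0.974, against a lowest value of 0.982 in the other groups. Their residual variance was 0.0708, against 0.0102 to 0.0154 in the other groups. The main tests took 1 spread per gene from all groups, so the SEs and intervals of every comparison include the spread of this group. All 12 cardiomyocyte markers reached log2 5 on every array. An unannotated probe set also split the arrays into 8 with a high value, 2 from each of the 4 MerCreMer groups, and 13 with a low value, 1 from each MerCreMer group and all 9 wild-type arrays. Tamoxifen was therefore compared within both sets in MerCreMer hearts, whereas genotype and this split overlap in part.

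The promoters of 3 members are shown: Slc8a1 and Pln, which changed, and S100a1, which was not called in any comparison. Atp2a2 and Atp2b1 were not called in any comparison either. A promoter window was at hand for 5 members, and matches were listed for these 3 only. The windows shown therefore give no contrast between changed and unchanged genes. Each line gives the 250 bases before the RefSeq transcription start on mouse build GRCm38.p6, read 5′ to 3′ on the gene's strand. The windows are chr10:53337436-53337685 on the plus strand for Pln, chr17:81738388-81738637 on the minus strand for Slc8a1 and chr3:90514331-90514580 on the minus strand for S100a1. Capitals mark every AGATA, which holds the core that GATA factors bind, every CCAAT and every TATAAA on either strand, so that a minus-strand AGATA reads TATCT. The same core after another base, as in TGATAA of the Pln window, was neither marked nor counted.
Pln: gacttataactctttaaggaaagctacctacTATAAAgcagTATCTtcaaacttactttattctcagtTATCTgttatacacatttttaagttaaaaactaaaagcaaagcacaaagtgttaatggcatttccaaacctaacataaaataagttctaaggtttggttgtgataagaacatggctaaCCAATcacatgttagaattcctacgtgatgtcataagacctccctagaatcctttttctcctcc
Slc8a1: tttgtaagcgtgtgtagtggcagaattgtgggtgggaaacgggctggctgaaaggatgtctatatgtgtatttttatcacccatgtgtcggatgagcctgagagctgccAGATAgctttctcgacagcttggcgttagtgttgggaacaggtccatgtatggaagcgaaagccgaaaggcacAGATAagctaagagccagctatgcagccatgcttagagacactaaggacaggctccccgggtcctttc
S100a1: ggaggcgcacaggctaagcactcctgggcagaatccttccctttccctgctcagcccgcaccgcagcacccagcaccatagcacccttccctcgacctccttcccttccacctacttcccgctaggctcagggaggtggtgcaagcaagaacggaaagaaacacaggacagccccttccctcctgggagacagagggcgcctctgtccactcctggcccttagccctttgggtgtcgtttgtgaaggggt
The Pln and Slc8a1 windows each held 2 AGATA matches, at 209 to 205 and 182 to 178 bases before the start of Pln on the minus strand, and at 141 to 137 and 68 to 64 bases before that of Slc8a1 on the plus strand. The Pln window also held 1 CCAAT match, at 64 to 60 bases, and 1 TATAAA match, at 219 to 214 bases. An E-box, CANNTG and not capitalised, occurred at 1 place in the Pln window and at 1 place in that of Slc8a1, and overlapped no other match. The S100a1 window held none of these, and none of the 3 windows held a MEF2 or a CArG consensus. Among 32841 RefSeq windows of the same length, 26.6% held AGATA, 33.9% CCAAT, 12.4% TATAAA, 66.2% CANNTG, 2.92% MEF2 and 1.47% CArG. The GC content was 32.8% in the Pln window, 50.4% in that of Slc8a1 and 61.6% in that of S100a1. These matches describe the letters only.

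After 4 tamoxifen injections in MerCreMer hearts, the exchanger gene Slc8a1 and the pump inhibitor gene Pln fell, while the pump gene Atp2a2 was at 92.8% of its control level and did not pass the test. Slc8a1 was at 38.5% and Pln at 58.5% of their level in MerCreMer hearts after 4 control injections. S100a1 and Atp2b1 did not pass the test, and Sln was too dim to be tested. In all, 2 of the 5 tested members were called, both lower, at an adjusted p under 0.05 in the limma fit over all 11384 genes, whereas 23.3% of all genes were called, 13.9% of all genes as higher and 9.41% as lower. The groups did not overlap for 3 of the 5, Atp2a2, Pln and Slc8a1, nor for 27.9% of all genes. The median change of all genes was 0.01 on the log2 scale. In bulk tissue, fewer cells of a type and less RNA per cell cannot be told apart.

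**Figure D1:**
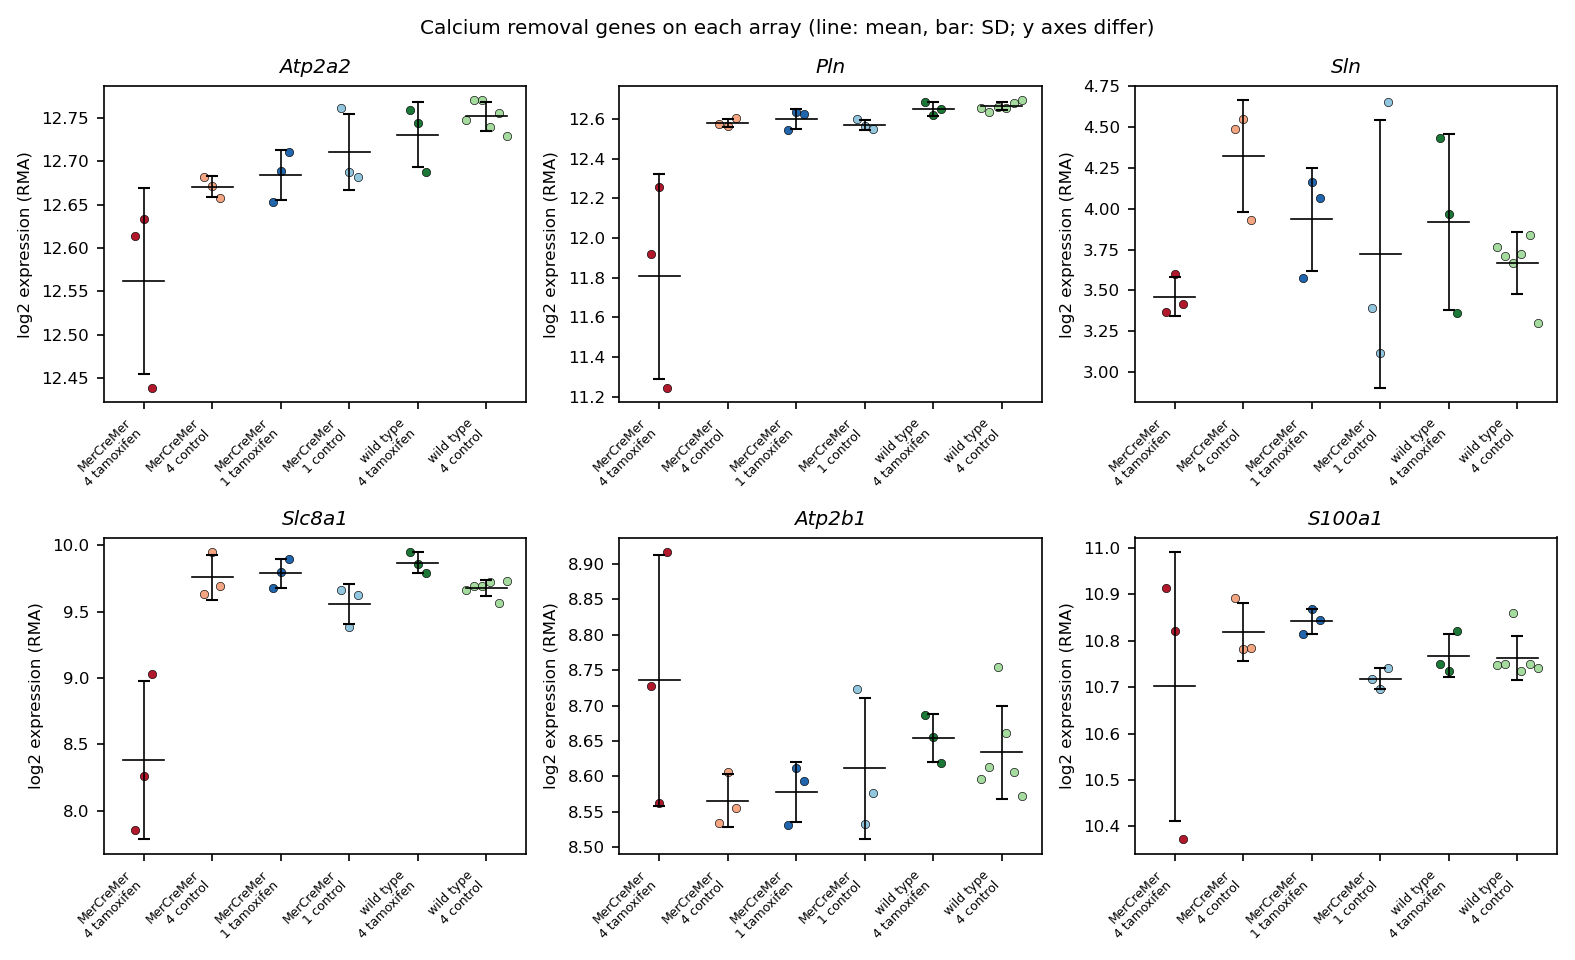
Log2 RMA level of each measured member on all 21 arrays, by group, with 1 point per array, a line at each group mean and a bar of 1 SD either way; the y axes differ between genes. Slc8a1 and Pln were lower on all 3 arrays of MerCreMer hearts after 4 tamoxifen injections than on any other array, whereas Atp2a2 lay between 12.44 and 12.77 throughout and Sln stayed below 5.

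Atp2a2, the gene of the pump itself (chr5:122453513-122502225), had log2 levels of 12.61, 12.63 and 12.44 after 4 tamoxifen injections in MerCreMer hearts, against 12.68, 12.67 and 12.66 after 4 control injections. The groups did not overlap, but the gap between the nearest arrays was small. The change was -0.11 (SE 0.0592), with a 95% interval of -0.23 to 0.02 and an adjusted p of 0.193 in limma. A change in signal of the size seen for Pln or Slc8a1 lay outside the interval. The highest value in the data was 13.28, and whether signals this bright understate a loss was not tested.

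Pln, the gene of phospholamban (chr10:53337686-53345999), had log2 levels of 11.92, 12.26 and 11.24 after 4 tamoxifen injections in MerCreMer hearts, against 12.57, 12.56 and 12.60 after 4 control injections. The control arrays lay almost on one value, and each tamoxifen array lay below all of them by a different amount. The change was -0.77 (SE 0.15, 95% interval -1.09 to -0.46, limma adjusted p = 0.00152), which ranked 502 among all genes by p. Its size rested partly on replicate 3, without which it was -0.48 and remained called. The call was lost, at an adjusted p of 0.276, when the spread was taken from the 6 arrays of these groups alone.

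Sln encodes sarcolipin, an inhibitor of the same pump that is abundant in mouse atria and scarce in ventricle (chr9:53850251-53853849). Its log2 levels were 3.37, 3.60 and 3.42 after 4 tamoxifen injections in MerCreMer hearts, against 4.48, 4.55 and 3.93 after 4 control injections. The tamoxifen arrays were the lower group without overlap, but all values were under the level required for the test. In the fit without that filter the change was -0.86 (SE 0.306) at an adjusted p of 0.0772.

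S100a1 encodes a calcium-binding protein that raises the activity of SERCA2a and of the release channel (chr3:90511034-90514330). It had log2 levels of 10.91, 10.82 and 10.37 after 4 tamoxifen injections in MerCreMer hearts, against 10.89, 10.78 and 10.78 after 4 control injections. Replicate 3 alone was low, and the groups overlapped. The change was -0.12 (SE 0.0945, 95% interval -0.32 to 0.08, limma adjusted p = 0.388), and without replicate 3 its sign turned to 0.04.

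Slc8a1, the exchanger gene (chr17:81373105-81738387), had log2 levels of 7.85, 8.26 and 9.03 after 4 tamoxifen injections in MerCreMer hearts, against 9.63, 9.95 and 9.70 after 4 control injections. Every tamoxifen array lay below every control array, with replicate 1 the lowest and replicate 3 the nearest to the controls. The change was -1.38 (SE 0.179, 95% interval -1.75 to -1.001, limma adjusted p = 4.63e-05), which ranked 106 among all genes by p. The call held without each array in turn, at -1.69 to -1.12. It was lost when the spread came from the 6 arrays compared alone, at an adjusted p of 0.117, a setting in which 18 genes in all were called.

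The other single-gene probe set of Slc8a1 gave a dimmer reading of the same gene. Its log2 levels were 4.28, 4.94 and 6.16 after 4 tamoxifen injections in MerCreMer hearts, against 5.75, 6.94 and 6.20 after 4 control injections. The 2 groups overlapped there, because replicate 3 after tamoxifen reached the control range, and the order of the tamoxifen arrays was that of the brighter probe set. The change was -1.17 (SE 0.326, limma adjusted p = 0.0162).

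Atp2b1, the gene of the widely expressed plasma membrane pump PMCA1 (chr10:98914630-99026143), had log2 levels of 8.73, 8.56 and 8.92 after 4 tamoxifen injections in MerCreMer hearts, against 8.54, 8.61 and 8.55 after 4 control injections. Replicates 1 and 3 were above the controls and replicate 2 lay among them. The change was 0.17 (SE 0.0808, 95% interval 0.00 to 0.34, limma adjusted p = 0.133). Without replicate 2 after tamoxifen it was 0.26 and called, at an adjusted p of 0.0202, and without replicate 3 it was 0.07, at an adjusted p of 0.538.

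The 2 members that fell did not follow one another from array to array. Relative to the mean of MerCreMer hearts after 4 control injections, Slc8a1 differed by -1.90, -1.50 and -0.73 on replicates 1, 2 and 3 after 4 tamoxifen injections. Pln differed by -0.66, -0.32 and -1.33 on the same arrays. Replicate 3 thus had the smallest loss of Slc8a1 and the largest loss of Pln, and it was also the array with the lowest S100a1 and Atp2a2 and the highest Atp2b1.

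**Figure D2:**
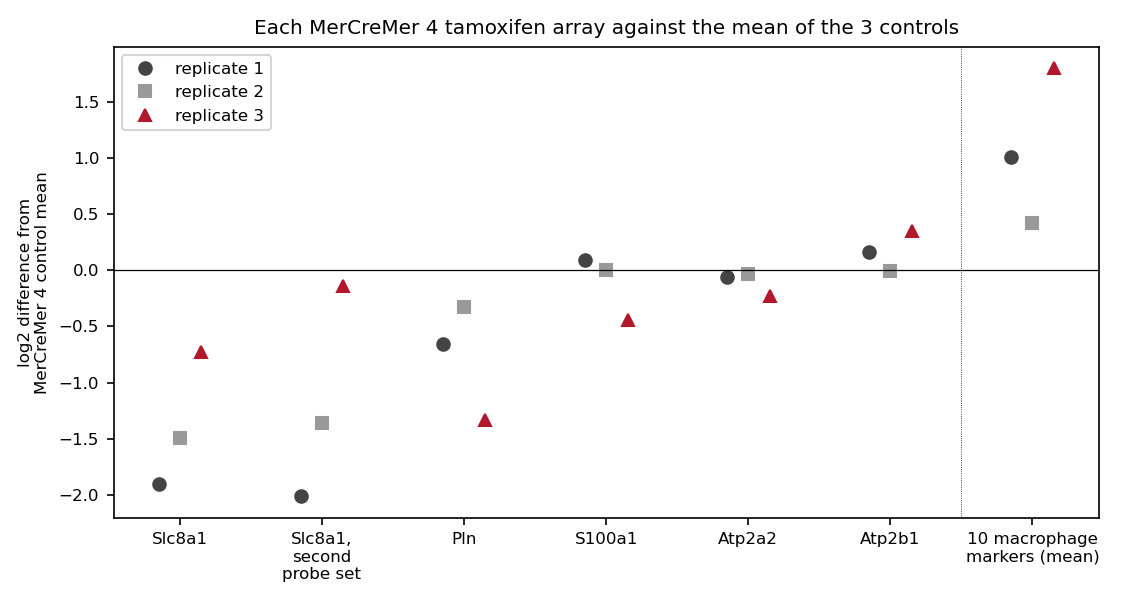
Log2 difference of each member from the mean of MerCreMer hearts after 4 control injections, for each of the 3 arrays of MerCreMer hearts after 4 tamoxifen injections, with both probe sets of Slc8a1 and, right of the dotted line, the difference of the mean of 10 macrophage markers. Replicate 3 stands apart with the largest Pln loss (-1.33), the smallest Slc8a1 loss (-0.73) and the highest macrophage markers.

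Markers of other cells moved with the same arrays. The mean log2 level of 10 macrophage markers was 7.64, 7.05 and 8.43 on replicates 1, 2 and 3 after 4 tamoxifen injections in MerCreMer hearts, against 6.61 to 6.65 after 4 control injections, and all 10 of 10 were called higher. The mean of the 12 cardiomyocyte markers was 12.02, 12.16 and 11.80 on the tamoxifen arrays, against 12.12 to 12.13 on the control arrays, and 1 of 12, the titin gene Ttn, was called lower. The fibroblast mean was 8.75, 8.74 and 10.10 on the tamoxifen arrays, against 8.54 to 8.69 on the control arrays, and none of these markers was called. The endothelial mean was 8.55, 8.12 and 7.87 on the tamoxifen arrays, against 8.35 to 8.53 on the control arrays, and 3 of 8 were called lower, Erg, Cdh5 and Emcn. Of 10 skeletal muscle markers 4 were tested, and the troponin genes Tnnt1 (3.03) and Tnnt3 (1.84) were called higher. No smooth muscle or erythrocyte marker tested was called. Over all genes in this comparison 13.9% were called higher and 9.41% lower. Without replicate 3 after tamoxifen, 10 of 10 macrophage markers and 2 of 4 skeletal muscle markers were called higher. Of the endothelial markers 1 of 8 was then called lower, and of the 12 cardiomyocyte markers 1 higher and 1 lower. Those shares of all genes were then 10.7% and 5.77%. The part of these markers in the changes of Pln and Slc8a1 was not tested.

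Within the 8 arrays with the high value of the unannotated probe set, Slc8a1 differed by -1.38 and Pln by -1.001 on the log2 scale between 2 tamoxifen arrays and 2 control arrays of MerCreMer hearts after 4 injections. Both males of that set were tamoxifen arrays, so sex and tamoxifen overlap there. In a limma fit to those 8 arrays without a sex term neither was called, at adjusted p-values of 0.0903 for Slc8a1 and 0.0602 for Pln. With a sex term the values were -1.03 for Slc8a1 (adjusted p = 0.0643) and -1.15 for Pln (adjusted p = 0.0396). Within the 13 other arrays 1 tamoxifen array stood against 1 control array, with differences of -1.37 for Slc8a1 and -0.32 for Pln.

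After a single tamoxifen injection in MerCreMer hearts none of the 5 tested members was called, where 0.00878% of all genes were called, 1 gene in limma, and 380 had an unadjusted p under 0.05. Slc8a1 had log2 levels of 9.68, 9.80 and 9.89 after 1 tamoxifen injection, against 9.66, 9.38 and 9.63 after 1 control injection. These groups did not overlap, with tamoxifen the higher, opposite to the direction after 4 injections. The same held for S100a1, at 10.81, 10.87 and 10.84 after 1 tamoxifen injection, against 10.72, 10.70 and 10.74 after 1 control injection, and 10.4% of all genes had groups without overlap in this comparison. The changes were 0.23 for Slc8a1 (SE 0.179, 95% interval -0.14 to 0.61) and 0.12 for S100a1 (SE 0.0945, 95% interval -0.07 to 0.32). Pln differed by 0.03, with an interval of -0.28 to 0.35, Atp2a2 by -0.03, with an interval of -0.15 to 0.10, and Atp2b1 by -0.03, with an interval of -0.20 to 0.14.

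In wild-type hearts, 4 tamoxifen injections likewise gave no called member, among 0% of all genes called in limma and 295 genes with an unadjusted p under 0.05. Slc8a1 had log2 levels of 9.95, 9.86 and 9.79 after 4 tamoxifen injections, against a lowest value of 9.57, a median of 9.69 and a highest of 9.73 on the 6 arrays after 4 control injections. The groups did not overlap, which 3.42% of all genes shared, and tamoxifen was again the higher group. The change was 0.17 (SE 0.156, 95% interval -0.16 to 0.50, adjusted p = 1 in limma). Pln differed by -0.01 with an interval of -0.28 to 0.26, Atp2a2 by -0.02 with an interval of -0.12 to 0.09, S100a1 by 0.01 with an interval of -0.16 to 0.19 and Atp2b1 by 0.02 with an interval of -0.12 to 0.17.

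The tamoxifen effects on Pln and Slc8a1 differed between genotypes and between 4 and 1 injections, by tests of these differences. Neither gene was called as lower in wild-type hearts or after 1 injection. Slc8a1 was at 0.17 and 0.23 there, and Pln at -0.01 and 0.03. The effect of 4 tamoxifen injections in MerCreMer hearts minus that in wild-type hearts was -1.55 for Slc8a1 (SE 0.238, limma adjusted p = 0.000638) and -0.76 for Pln (SE 0.199, limma adjusted p = 0.0249), and 7.98% of all genes were called, 3.53% in this direction. The effect of 4 injections minus that of 1 injection in MerCreMer hearts was -1.61 for Slc8a1 (SE 0.254, limma adjusted p = 0.00106) and -0.80 for Pln (SE 0.212, limma adjusted p = 0.0328), and 5.78% of all genes were called, 3% in this direction. Both tests use the same 6 arrays of MerCreMer hearts after 4 injections as the first comparison. The Slc8a1 calls held without any 1 array, but the Pln calls did not. Between genotypes the Pln call was lost in 4 of 15 cases, without replicate 1 or 3 of the MerCreMer hearts after 4 control injections or of the wild-type hearts after 4 tamoxifen injections, at adjusted p-values up to 0.0649. Between injection numbers it was lost in 9 of 12 cases, without any 1 array other than those of MerCreMer hearts after 4 tamoxifen injections, at adjusted p-values up to 0.0743. With the spread taken from the arrays compared alone the Pln calls were lost as well, at adjusted p-values of 0.0735 and 0.23, and without the filter on low values the one between injection numbers was lost, at 0.055. With the replicate number as a block, a pairing the labels do not state, neither gene kept its call between genotypes. Between injection numbers Pln lost its call in that fit too. Within the 8 arrays with the high value of the unannotated probe set neither gene's difference between injection numbers was called (Slc8a1 adjusted p = 0.161, Pln adjusted p = 0.217). Without replicate 3 of the MerCreMer hearts after 4 tamoxifen injections both Pln differences were smaller, -0.46 and -0.51, and remained called. The other probe set of Slc8a1 gave -1.52 between genotypes (adjusted p = 0.0376) and -1.41 between injection numbers (adjusted p = 0.0786). Atp2a2, S100a1 and Atp2b1 were not called in either test, with adjusted p-values of 0.495, 0.549 and 0.421 between genotypes and 0.58, 0.286 and 0.292 between injection numbers.

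**Figure D3:**
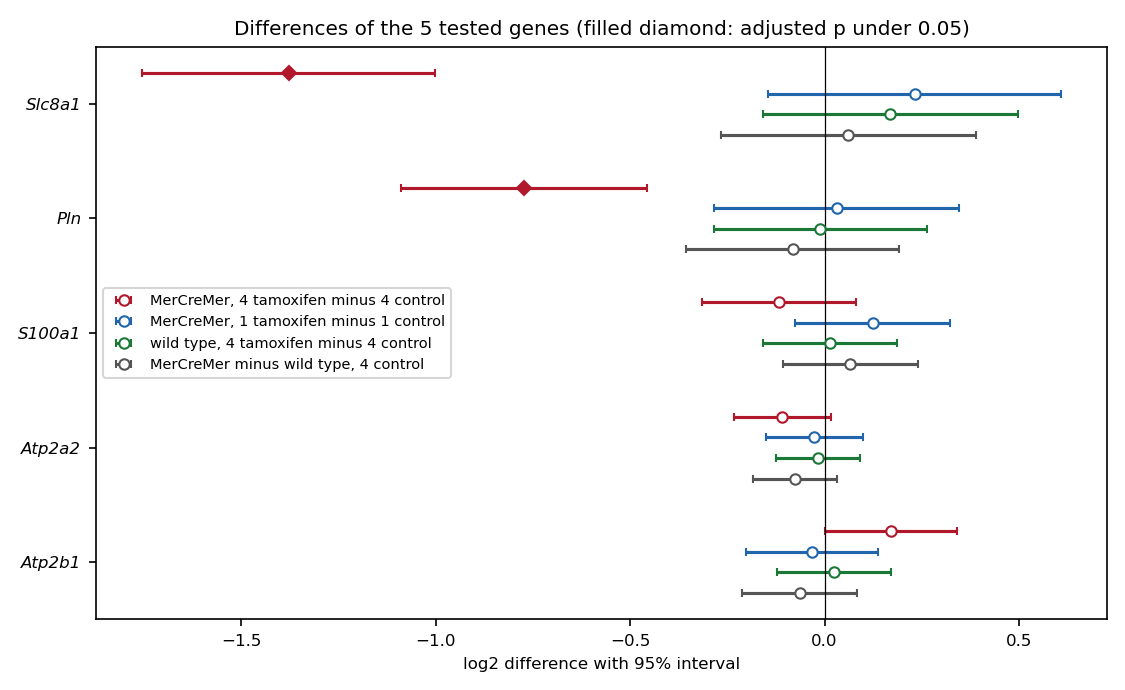
Log2 differences of the 5 tested members with 95% intervals from the limma fit, for tamoxifen minus control injections in each genotype and schedule and for MerCreMer minus wild type after control injections, with called differences drawn as filled diamonds. The intervals of Slc8a1 (-1.75 to -1.001) and Pln (-1.09 to -0.46) lie below 0 after 4 injections in MerCreMer hearts, and those for 1 injection and for wild-type hearts span 0.

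Between the genotypes after control injections the members lay close together. Pln had log2 levels of 12.57, 12.56 and 12.60 in MerCreMer hearts after 4 control injections, against 12.63 to 12.69 with a median of 12.66 in wild-type hearts after the same course. Atp2a2 was at 12.68, 12.67 and 12.66 in those MerCreMer hearts, against 12.73 to 12.77 with a median of 12.75 in wild-type hearts. Neither pair of groups overlapped, nor did 12.5% of all genes, but neither difference was called: -0.08 for Pln (SE 0.131, limma adjusted p = 0.818) and -0.08 for Atp2a2 (SE 0.0516, limma adjusted p = 0.515). These SEs come from all 6 groups, whereas the SD of Pln was 0.0208 in those MerCreMer hearts and 0.0206 in the wild-type hearts. No member was called between genotypes in any of 17 alternative fits, the fit to the arrays compared alone among them. Within the 13 arrays with the low value, 1 MerCreMer array stood against 6 wild-type arrays, with differences of -0.09 for Pln and -0.07 for Atp2a2. In the fit to all arrays with the array split as a block, the value for Pln was 0.04. None of the 5 tested members was called here, among 0.676% of all genes, and none between 4 and 1 control injections in MerCreMer hearts, among 0% of all genes, where 375 genes had an unadjusted p under 0.05. Nor did any differ by sex in the same fit, where 0.29% of all genes were called and the members' adjusted p-values were 0.736 to 0.972.

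Ordered by group mean, Slc8a1 was lowest after 4 tamoxifen injections in MerCreMer hearts at 8.38 ± 0.596 (SD, n = 3), and the other 5 groups followed between 9.56 ± 0.152 in MerCreMer hearts after 1 control injection and 9.87 ± 0.0791 in wild-type hearts after 4 tamoxifen injections. Neighbours in the order of those 5 differed by less than the larger of their SDs. Pln was also lowest after 4 tamoxifen injections in MerCreMer hearts, at 11.81 ± 0.515 (SD, n = 3), and the other groups lay between 12.57 ± 0.0244 and 12.66 ± 0.0206 (n = 3 and 6). Atp2a2 ran from 12.56 ± 0.107 (SD, n = 3) in that group to 12.75 ± 0.0166 (n = 6) in wild-type hearts after control injections, and its highest group mean was the wild-type one. Atp2b1 was highest in MerCreMer hearts after 4 tamoxifen injections, at 8.74 ± 0.177 (SD, n = 3), against 8.57 to 8.65 in the other groups, and S100a1 means lay between 10.70 and 10.84 in all 6 groups.

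The arrays with the highest Sln also had high levels of atrial markers, although every Sln value was under the level required for the test. The reverse did not always hold. Replicate 3 of MerCreMer hearts after 4 control injections had an atrial mean of 7.74 but Sln at only 3.93. The 5 arrays with the highest Sln, at log2 levels of 4.16 to 4.65, came from 4 groups and had mean levels of 6 atrial markers of 7.66 to 7.84. All 3 arrays of MerCreMer hearts after 4 tamoxifen injections had lower atrial means, 6.45 to 7.08, against 7.66 to 7.84 on the 3 arrays of MerCreMer hearts after 4 control injections. Of 5 atrial markers tested in that comparison, Kcnj3 (-1.74) and Myl7 (-3.77) were called lower, Kcnj5 (0.78) was called higher, and Myl4 (-2.11) and Nppa (1.02) did not pass. Myl7 was high in those MerCreMer controls, at 8.11 to 8.60, against 4.22 to 7.02 in wild-type controls. On the tamoxifen arrays compared it was 4.07 to 5.04. Sln was also higher, without overlap, in those MerCreMer controls than in wild-type controls, where it was 3.30 to 3.84 and the atrial mean 6.21 to 7.28. In the fit without the filter that difference was 0.66 (SE 0.267, limma adjusted p = 0.242). The part of atrial tissue in the Sln values was not tested.

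**Figure D4:**
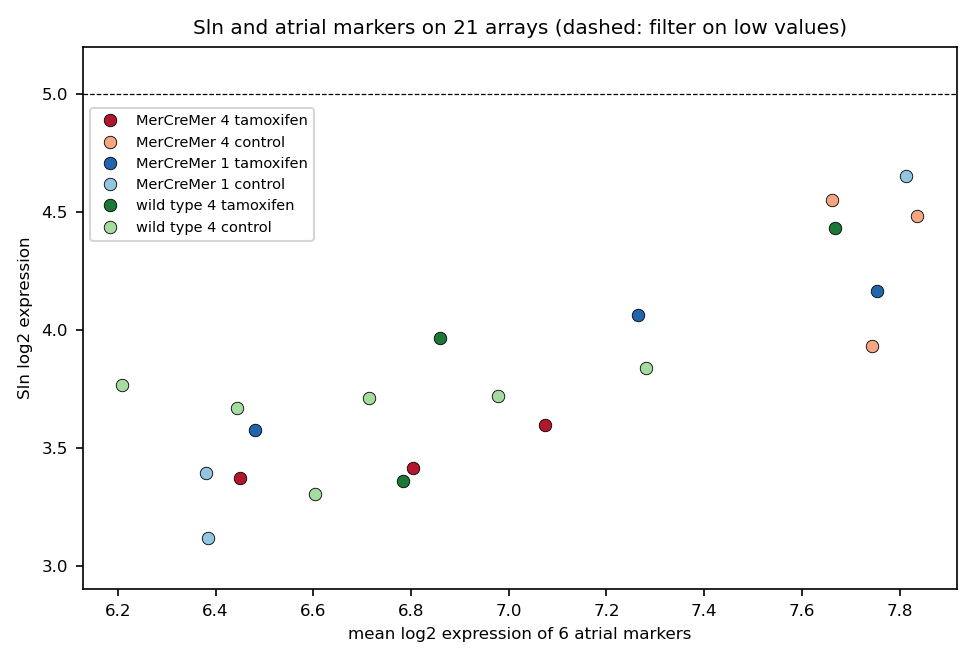
Sln log2 level against the mean log2 level of 6 atrial markers on each of the 21 arrays, coloured by group, with a dashed line at the level required for the test. The 5 arrays with the highest Sln (4.16 to 4.65) have atrial means of 7.66 to 7.84, and the arrays of MerCreMer hearts after 4 tamoxifen injections lie at 6.45 to 7.08.

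Among the 11384 tested genes, those with a profile most like Pln over the 21 arrays were Myzap, Ank2 and Ric8b. The measure was the root mean square difference between log2 values centred on each gene's mean, which was 0.0763 for Myzap, 0.0815 for Ank2 and 0.101 for Ric8b, against a median of 0.364 over all genes. Most like Slc8a1 were Cdh2 at 0.12, Akap6 at 0.168 and Chrm2 at 0.18, against a median of 0.552 over all genes. Pln and Slc8a1 differed from each other by 0.391 on this measure. After 4 tamoxifen injections in MerCreMer hearts, Myzap changed by -0.71, Ank2 by -0.83 and Ric8b by -0.69, and Cdh2 changed by -1.39, Akap6 by -1.27 and Chrm2 by -1.29. These genes were picked for likeness over the same arrays, so changes near those of Pln and Slc8a1 follow from the choice.

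Of 22 listed regulators of SERCA2a and phospholamban, 17 were tested, and after 4 tamoxifen injections in MerCreMer hearts 3 rose and 2 fell, with a median change of 0.10. Over all genes in that comparison 13.9% rose and 9.41% fell, 23.3% in all, and the regulators' counts lay near these shares. Camk2d, the gene of a cardiac kinase that phosphorylates phospholamban, fell to log2 levels of 8.10, 8.06 and 8.13 after 4 tamoxifen injections in MerCreMer hearts, against 9.31, 9.22 and 9.38 after 4 control injections. Its 3 tamoxifen arrays lay within a narrow band well below the controls, unlike those of Pln, and the change was -1.21 (SE 0.0724, limma adjusted p = 6.16e-09). Ppp1r3a, a muscle targeting subunit of the phosphatase that dephosphorylates phospholamban, fell by 1.20 on the log2 scale (SE 0.154, limma adjusted p = 4.24e-05). Ppp1cc, a catalytic subunit of that phosphatase, rose by 0.46 (SE 0.0887, limma adjusted p = 0.0015) and Camk2g, a related kinase, by 0.34 (SE 0.0885, limma adjusted p = 0.0104). Sri, the calcium-binding protein sorcin, rose by 0.44 (limma adjusted p = 0.0201), but without replicate 3 the value was 0.23 at an adjusted p of 0.0912. Hrc, a luminal calcium-binding protein of the reticulum, was at -0.95 and did not pass (limma adjusted p = 0.0572). Its log2 levels were 10.46, 10.33 and 8.16 after 4 tamoxifen injections in MerCreMer hearts, and without replicate 3 the value was -0.21.

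Of 13 listed partners of the exchanger and plasma membrane pumps and subunits of the sodium pump, 8 were tested, 3 rose and 1 fell, beside the same 13.9% and 9.41% of all genes, with a median change of 0.20. Ank2 encodes ankyrin-B, which anchors the exchanger and the sodium pump at the T-tubule. It had log2 levels of 7.94, 7.92 and 6.93 after 4 tamoxifen injections in MerCreMer hearts, against 8.42, 8.42 and 8.46 after 4 control injections. The change was -0.83 (SE 0.165, limma adjusted p = 0.00176), and without replicate 3 it was -0.50. Calm2, a calmodulin gene, rose by 0.36 (limma adjusted p = 0.0139), Nptn, whose product partners plasma membrane pumps, by 0.26 (limma adjusted p = 0.0342) and Atp1b1, a sodium pump subunit, by 0.32 (limma adjusted p = 0.0364). These 3 were not called without replicate 3, at adjusted p-values of 0.0702, 0.0503 and 0.183. Of 12 mitochondrial calcium genes, 10 were tested and 1 was called, the uniporter pore gene Mcu, which fell by 0.26 (limma adjusted p = 0.0463) and was not called without replicate 3. Of 13 other calcium pumps and exchangers, 4 were tested and none was called: Atp2a1, Atp2a3, Atp2b2 and Atp2c1, at -0.23 to -0.08.

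**Figure D5:**
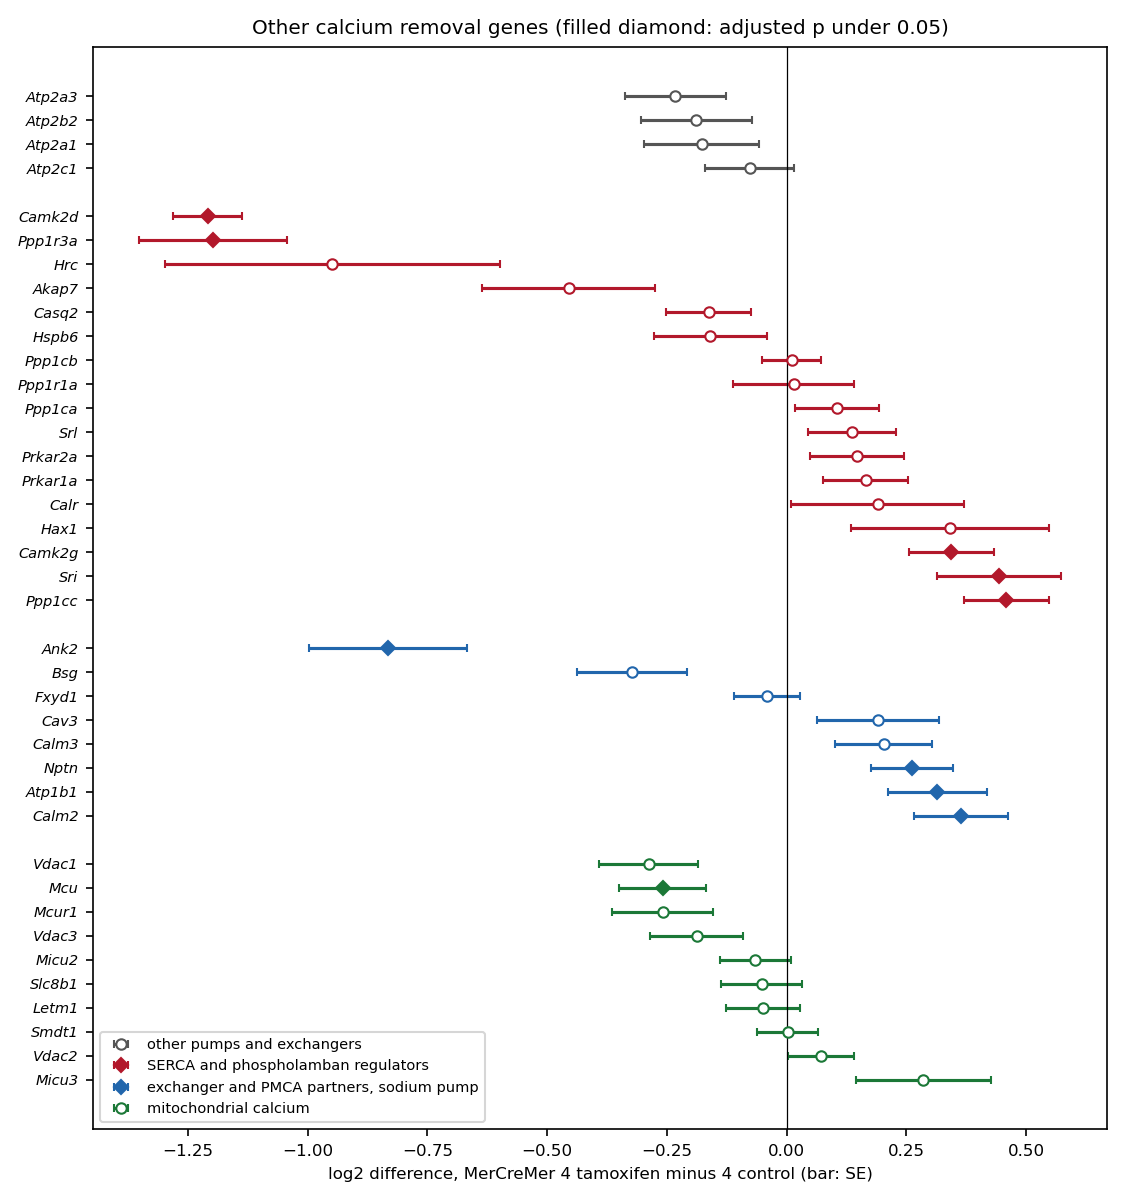
Log2 change after 4 tamoxifen against 4 control injections in MerCreMer hearts for each tested gene of the 4 lists, with bars of 1 SE either way and filled diamonds for called genes. Camk2d (-1.21) and Ppp1r3a (-1.20) lie lowest among the regulators, Ank2 (-0.83) among the exchanger partners, and the other pumps and exchangers lie between -0.23 and -0.08 without a call.

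Without replicate 3 after tamoxifen, 2 regulators rose and 2 fell, 1 exchanger partner fell, and no gene of the mitochondrial list or of the other pumps was called, among 16.5% of all genes called, 10.7% as higher and 5.77% as lower. The differences between genotypes and between injection numbers were also called for Camk2d, at -1.17 and -1.23, for Ppp1r3a, at -1.14 and -1.21, for Ppp1cc, at 0.47 and 0.48, and for Ank2, at -0.87 and -0.90. No gene of the 4 lists was called after 1 tamoxifen injection in MerCreMer hearts, after 4 tamoxifen injections in wild-type hearts, or between the control groups.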

How the data were processed

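Left ventricle RNA was measured on 21 Affymetrix arrays. The submitters' processing notes name RMA, without a version, for the deposited log2 expression levels, which were used without further scaling. RMA puts arrays on one distribution and so hides a change common to most genes. No source used here gives an array batch or scan date. The annotation gave 1 gene for 21640 of 34760 probe sets, several for 1321 and no entry for 11799. Of the Entrez identifiers, 99.6% matched RefSeq (GRCm38.p6), the source of positions and promoter sequences.

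The 6 group means and sex were fitted to all arrays with limma 3.58.1 in R 4.3.3 (14 residual and 3.98 prior degrees of freedom), with Benjamini-Hochberg adjustment over 11384 genes. The method was tested on simulated data. All members were named in every comparison. From each list up to 4 called genes per comparison with the smallest adjusted p were named, as were the 3 genes most like each called member. Genes not called and the fifth regulator were named after their values were seen. The members and lists were chosen with earlier results of these data known. Alternatives were no sex term, only the arrays compared, group variance weights, a further quantile normalisation, no filter, the mean over probe sets, a replicate block, and each array left out. The split of the arrays was examined after seeing the data.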

Additional observations from a re-analysis of the deposited data

Results flagged for a closer look

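The difference of the tamoxifen effects between MerCreMer and wild-type hearts was called in limma for Pln (-0.76) and Slc8a1 (-1.55), and that between 4 and 1 injections for Pln (-0.80) and Slc8a1 (-1.61). In wild-type hearts after 4 control injections, the lowest Sln array, at 3.30, and the highest S100a1 array, at 10.86, stood apart from the other 5 arrays of the group. The gap was 0.686 of the whole range for Sln and 0.879 for S100a1, among 6 members examined in that group, and chance marks about 5% of groups in this way.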

How the results depend on the processing

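Without a sex term, after a further quantile normalisation, with the mean over probe sets and with variance weights per group, Pln and Slc8a1 kept their calls after 4 tamoxifen injections in MerCreMer hearts and in both tests of a difference of effects. The further quantile normalisation gave 1368 genes called higher and 1313 lower in the first comparison, against 1583 and 1071 without it. The balance of directions over all genes thus depends on scaling. With the spread taken from the arrays compared alone, the first comparison had 0 members and 18 genes called, the difference between genotypes 1 member and 528 genes (Pln adjusted p = 0.0735) and that between injection numbers 1 member and 113 genes (Pln adjusted p = 0.23). It called 2 genes after 1 tamoxifen injection, 2 in wild-type hearts and 280 between genotypes. Group weights gave 1011 genes in the first comparison, 2, 3 and 648 in those 3, and 585 for the difference between genotypes. Without the filter, the difference between injection numbers had 1 member and 411 genes (Pln adjusted p = 0.055), 1 tamoxifen injection 2 genes and the control schedules 1 gene.

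The labels tie no animals across groups by number. Deviations of same-numbered samples correlated at -0.04 to 0.11 in the first comparison, -0.24 to 0.36 over 5 comparisons, and 0.07 to 0.28 after 1 injection in MerCreMer hearts, where each sample correlated best with its own number. With a replicate block, Pln and Slc8a1 remained called in the first comparison, among 1655 genes. Between genotypes the differences of effects were then -0.79 for Pln (adjusted p = 0.374) and -1.47 for Slc8a1 (adjusted p = 0.15), with 0 members and 27 genes called, and between injection numbers -0.80 for Pln (adjusted p = 0.104), with 1 member and 232 genes. The block left 0 genes after 1 tamoxifen injection and 1 between genotypes, and turned Atp2a2 (0.006) and Pln (0.0169) in wild-type hearts and Slc8a1 (-0.018) between genotypes.

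With the array split as a block, chosen after seeing the data, 7 genes were called between genotypes and Pln turned to 0.0409. Within its 8 high arrays the first comparison had 1 member and 655 genes called, and the difference between injection numbers 0 members and 4 genes. The sex term of that fit rests on 2 males, both tamoxifen arrays, and with it Pln was -0.12, Atp2b1 0.0696 and S100a1 -0.018 after 1 tamoxifen injection, where the means of the same arrays differed by 0.03, 0.007 and 0.11. Without the sex term the first comparison had 0 members and 236 genes called, and the difference between injection numbers 0 members and 7 genes, with Atp2b1 at 0.0071 after 1 tamoxifen injection. Atp2b1 was 0.0261 between control schedules in both fits. No wild-type array lies in that set, so it gives no value against wild-type hearts.

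Without 1 array at a time, genes called numbered 1648 to 3846 in the first comparison, 0 to 1 after 1 tamoxifen injection, 10 to 128 between genotypes, 504 to 2242 (1 to 2 members) for the difference of effects between genotypes and 378 to 1956 (1 to 2 members) for that between injection numbers. Atp2b1 ranged over 0.0725 to 0.2559 in the first comparison, and S100a1 over -0.2165 to 0.0425 there and -0.2238 to 0.0338 between genotype effects. After 1 tamoxifen injection Atp2a2 ranged over -0.0448 to 0.0031 and Atp2b1 over -0.0689 to 0.023. In wild-type hearts Atp2a2 ranged over -0.0279 to 1e-04, Pln over -0.026 to 0.0032 and S100a1 over -0.0226 to 0.0517. Slc8a1 ranged over -0.0148 to 0.1129 between genotypes, and between control schedules Pln over -0.006 to 0.0184 and Atp2b1 over -0.0819 to 0.01. Of these differences, Atp2b1 in the first comparison was called without replicate 2 after tamoxifen, and no other was called. The cause of the lost calls was not tested. Group sizes of 3 set the precision of every value.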
